A study of Mus musculus with 4 samples.

Results

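The transcripts described here are those of 8 genes of epithelial adhesion, E-cadherin (Cdh1) with its catenins Ctnna1, Ctnnb1 and Ctnnd1, and the tight junction genes Cldn1, Ocln, Tjp1 and F11r. They were picked by symbol out of 24441 gene symbols. Each of the 8 had a single locus in the tables, and all 8 passed the low-value filter, which asked for an average of 1 FPKM or more. RNA sequencing had been run on Langerhans cells, which take up and present antigen in the outer skin, after sorting from epidermal suspensions of mice aged 4 weeks. Tfam cKO mice carried CD11c-Cre and floxed Tfam (CD11cCreTfamfl/fl), so that Tfam, a gene for a mitochondrial DNA-binding transcription factor, is targeted in cells that express CD11c. WT mice were the comparison, and the labels do not say whether they carried the Cre transgene. Each group had 2 libraries, numbered 1 and 2, and whether a library came from 1 mouse or from pooled mice is not stated, so p-values measure only the spread between libraries.

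Langerhans cells sit among keratinocytes and hold on to them through E-cadherin, whose cytoplasmic tail binds beta-catenin and p120-catenin, while alpha-catenin links the complex to actin. Tight junctions are built from claudins, occludin and junctional adhesion molecules that are tied to actin by the scaffold ZO-1, and Langerhans cells can push dendrites through the tight junctions of the outer epidermis and form such contacts with keratinocytes there. Keratinocytes make all of these proteins too, so that in RNA from sorted cells the same transcript can come from either cell.

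The libraries matched their label in part. Cd207, which encodes langerin and defines Langerhans cells, was listed at 1528 FPKM in Tfam cKO 1 and 1374 FPKM in Tfam cKO 2, against 2098 FPKM in WT 1 and 1495 FPKM in WT 2. Krt5, the keratin of basal keratinocytes, was listed at 4480.2 and 3814.5 FPKM in Tfam cKO and at 4598 and 3003 FPKM in WT. FPKM scales fragments to transcript length and to the mapped fragments of the library, so these levels can be compared between genes, and Krt5 exceeded Cd207 in each of the 4 libraries. The ratio of Krt5 to Cd207 was 2.93 and 2.78 in Tfam cKO, above the 2.19 and 2.01 in WT. The 21 keratinocyte markers together made up 3.91% and 3.78% of summed FPKM in Tfam cKO and 4.10% and 3.18% in WT, and 10 of them were above, and 1 below, the WT range in both Tfam cKO libraries. Of all tested genes, 25.4% were above and 9.75% below in this way. The 8 Langerhans cell markers made up 5.43% and 4.39% in Tfam cKO and 4.97% and 5.64% in WT, with 0 of them above and 3 below the WT range. In limma 0 markers of either list passed, and 3 keratinocyte markers had an unadjusted p below 0.05, all 3 with a positive fold change. The shares over all tested genes were 5.01% with a positive and 1.19% with a negative fold change. In bulk RNA, fewer cells of a type and less RNA per cell cannot be told apart.

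Markers of other cells were scarcer. Of the 7 listed markers of dendritic epidermal T cells, 6 had rows, and these summed to 150.1 and 213 FPKM in Tfam cKO and 213 and 239 FPKM in WT. Melanocyte markers summed to 5.40 and 1.51 FPKM in Tfam cKO and 3.76 and 2.04 FPKM in WT. The lists for Merkel cells, fibroblasts and endothelium each summed to at most 1.07 FPKM in any library, with the Merkel cell factor Atoh1 and the fibroblast proteoglycan Lum at 0 in all 4. Tfam itself was listed at 1.65 and 1.53 FPKM in Tfam cKO and at 3.17 and 1.61 FPKM in WT, so that WT 2 stood within the Tfam cKO range. Gene-level FPKM can count fragments from outside a deleted segment, and the groups are named here as the labels name them. The Y-linked transcript Ddx3y was listed at 0 in the libraries numbered 1 and at 9.34 FPKM in Tfam cKO 2 and 28.2 FPKM in WT 2. Xist, the transcript of the inactive X chromosome, was listed at 39.0 and 45.6 FPKM in Tfam cKO and 64.6 and 5.38 FPKM in WT. Ddx3y thus split the libraries by number, Xist did not, and both libraries numbered 2 carried both transcripts. Whether the replicate numbers follow the sex of the mice was not tested. Differences by number are given beside the pooled ones as a description.

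Seen over all libraries, the 8 transcripts kept nearly the same order of abundance. Cldn1, the barrier-forming claudin of the epidermis, was the most abundant in each library, at 394 and 326 FPKM in Tfam cKO and 386 and 311 FPKM in WT. Cdh1 and Ctnna1 followed with ranges that overlapped, from 167 to 239 FPKM and from 181 to 238 FPKM, and they traded places between the groups. Ctnnb1, F11r and Ctnnd1 took the next ranks, in that order, in each library. The lowest of Ctnnb1, 71.7 FPKM in WT 2, was about level with the highest of F11r, 71.8 FPKM in Tfam cKO 2, while F11r and Ctnnd1 had separate ranges. Ocln and Tjp1 were the least abundant, from 26.6 to 35.3 FPKM and from 23.4 to 29.2 FPKM, and their order was turned in WT 2. The 95% intervals that the authors' software gave for single values reached from 1.40% to 5.94% of the value on each side, so counting error was small for all 8.

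**Figure D1:**
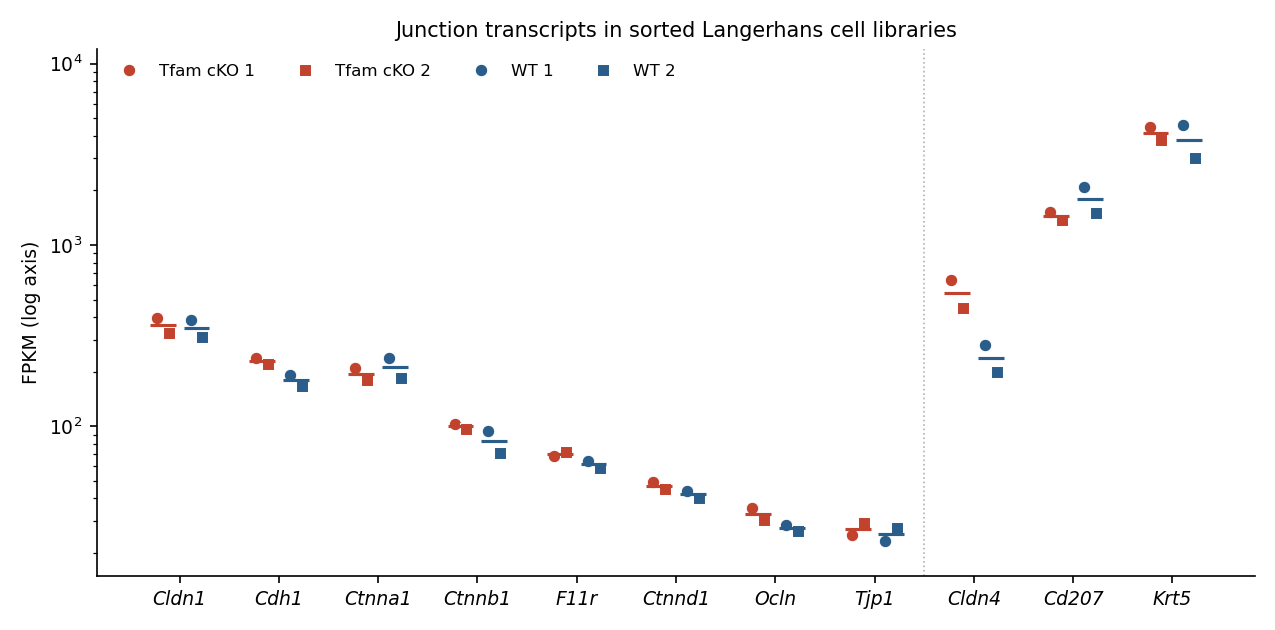
FPKM (log axis) of the 8 junction genes, ordered by mean level, and, right of the dotted line, of Cldn4, Cd207 and Krt5 in each library. Circles are libraries numbered 1, squares those numbered 2, and bars the mean of 2 libraries. Cdh1 stands at 239 and 219.6 FPKM in Tfam cKO and at 193 and 167 FPKM in WT, and Krt5 lies above Cd207 in both groups.

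No junction gene passed the test between the groups. Tfam cKO was compared with WT in limma on log2(FPKM + 1), a scale that makes the fold changes of weakly expressed genes too small. With Benjamini-Hochberg adjustment over 10910 tested genes, 0 of the 8 members were called, beside 0.0183% of all tested genes as higher and 0.0% as lower. At an unadjusted p below 0.05, limma had 0 of the 8 members in either direction, beside 5.01% of all tested genes as higher and 1.19% as lower. The fold change was positive for 7 of the 8, and for 65.2% of all tested genes. In both Tfam cKO libraries 5 of the 8 were above both WT libraries and 0 were below, where 25.4% of all tested genes were above and 9.75% below. The median log2 fold change of the 8 was 0.17, beside 0.07 for all tested genes. Rescaling the libraries to equal totals moved the median of all genes by more than 0.1, to −0.036, and that of the 8 to 0.053, with 4 of the 8 above and 1, Ctnna1, below, against 14.3% and 19.8% of all tested genes.

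Cdh1, the homophilic adhesion receptor of adherens junctions, had the largest fold change of the 8 in the values as deposited with all libraries. The negative fold change of Ctnna1 was larger in size after quantile normalization, after rescaling to equal totals, at equal Krt5 and without WT 2. Without WT 1 the fold change of Ctnnb1 was larger. Cdh1 lies on chromosome 8 at 109127250 to 109194147 in the files' coordinates, which did not match the mm10 named in the processing notes, so that the build is unresolved. It was listed at 239 FPKM in Tfam cKO 1 and 219.6 FPKM in Tfam cKO 2, against 193 FPKM in WT 1 and 167 FPKM in WT 2. The groups did not overlap, and the intervals of the nearest pair were apart, 216 to 223 FPKM in Tfam cKO 2 and 189 to 197 FPKM in WT 1. Such intervals do not cover the spread between libraries, and that of WT 2, 164 to 170 FPKM, was apart from that of WT 1 too. The means were 229 ± 13.8 FPKM in Tfam cKO and 180.2 ± 18.0 FPKM in WT (SD, n = 2 each), a ratio of 1.27. The log2 fold change was 0.35, its 95% interval ran from −0.09 to 0.79, and it did not pass (limma adjusted p = 0.868). Taken by library number, the log2 difference was 0.31 for number 1 and 0.39 for number 2. Scaling decided much of its size, with log2 fold changes of 0.23 after rescaling to equal totals and 0.19 after quantile normalization, in both of which it stayed above 0.

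The catenins did not share 1 pattern. Ctnnb1 (chromosome 9, 120842518 to 120869625 in the files), beta-catenin, which also carries Wnt signals to the nucleus, was listed at 103 and 96.4 FPKM in Tfam cKO and at 94.2 and 71.7 FPKM in WT. Its groups were apart by little, with intervals of 91.8 to 101 FPKM in Tfam cKO 2 and 90.2 to 98.3 FPKM in WT 1 that overlapped. The log2 fold change of 0.28 (limma adjusted p = 0.899) was 0.082 without WT 2 and 0.47 without WT 1, and by library number the difference was 0.13 and 0.42. After rescaling to equal totals it was 0.16. Ctnnd1 (chromosome 2, 84440938 to 84499134), p120-catenin, which keeps E-cadherin at the cell surface, was listed at 49.2 and 45.0 FPKM in Tfam cKO and at 44.2 and 40.1 FPKM in WT (log2 fold change 0.16, limma adjusted p = 0.945). Here too the lower Tfam cKO library and the higher WT library had overlapping intervals, and the fold change was 0.038 after rescaling to equal totals. It was 0.089 without WT 2 and 0.094 without Tfam cKO 1, and by library number 0.15 and 0.16.

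Ctnna1 (chromosome 18, 35278566 to 35414429), alpha-catenin, was the 1 member of the 8 with a negative fold change in the values as deposited. It was listed at 210.1 and 181 FPKM in Tfam cKO and at 238 and 184 FPKM in WT, so that the groups overlapped (log2 fold change −0.10, limma adjusted p = 0.975). The log2 fold change was 0.080 without WT 1 and −0.29 without WT 2, and 0.0031 without Tfam cKO 2 and −0.21 without Tfam cKO 1, so that its sign hung on single libraries of either group. After rescaling to equal totals it was −0.23, and after quantile normalization −0.25. The rescaled groups were apart, at 531 and 481 TPM in Tfam cKO and 645 and 544 TPM in WT. By library number it was −0.18 and −0.03. As a description with no test, the ratio of Cdh1 to Ctnna1 was 1.14 and 1.22 in Tfam cKO and 0.809 and 0.909 in WT, which no scaling of whole libraries can alter. The ratio of Cdh1 to Ctnnb1 was 2.32 and 2.28 in Tfam cKO and 2.05 and 2.34 in WT, and there the groups overlapped.

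Among the tight junction genes, the 2 membrane proteins Ocln and F11r had groups that were apart as deposited. Ocln (chromosome 13, 101267322 to 101322453), occludin, was listed at 35.3 and 30.3 FPKM in Tfam cKO and at 28.4 and 26.6 FPKM in WT (log2 fold change 0.24, limma adjusted p = 0.898). F11r (chromosome 1, 173367692 to 173394724), the junctional adhesion molecule JAM-A, was listed at 69.0 and 71.8 FPKM in Tfam cKO and at 64.6 and 58.7 FPKM in WT (log2 fold change 0.19, limma adjusted p = 0.926). Of the 5 members with separate groups, Ocln and F11r were among the 4 in which the intervals of the nearest pair of libraries overlapped, and after rescaling to equal totals the groups of F11r overlapped. Rescaling gave log2 fold changes of 0.12 for Ocln and 0.068 for F11r. Without Tfam cKO 1 the fold change of Ocln was 0.13, and without WT 2 that of F11r was 0.12. By library number, the log2 differences were 0.30 and 0.18 for Ocln and 0.09 and 0.29 for F11r.

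Cldn1 and Tjp1 differed by less than the libraries of a group differed from each other. The log2 fold change of Cldn1 (chromosome 16, 26356732 to 26371925), whose levels are given above, was 0.05, its limma adjusted p was 0.991 and its 95% interval ran from −0.45 to 0.55. After rescaling to equal totals it was −0.075. Tjp1 (chromosome 7, 72441051 to 72516130), the scaffold ZO-1, was listed at 25.3 and 29.2 FPKM in Tfam cKO and at 23.4 and 27.6 FPKM in WT (log2 fold change 0.09, limma adjusted p = 0.971), and after rescaling its fold change was −0.027. In Tjp1 both libraries numbered 2 stood above both numbered 1, and in Cldn1 and Ctnna1 both numbered 1 stood above both numbered 2. By library number the difference was 0.03 and 0.07 for Cldn1 and 0.11 and 0.08 for Tjp1. The fold change of Cldn1 was −0.11 without WT 2 and −0.087 without Tfam cKO 1, and up to 0.20 without another library. That of Tjp1 was −0.021 without WT 1 and −0.0074 without Tfam cKO 2, and up to 0.21 without another library.

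**Figure D2:**
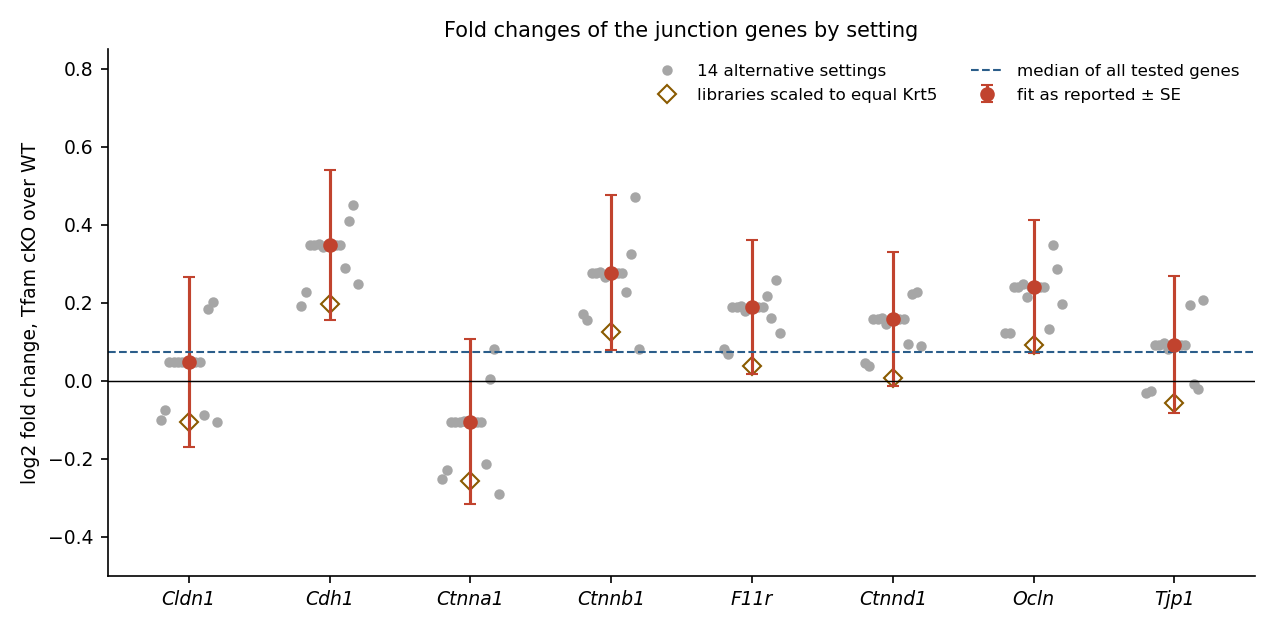
Log2 fold change of Tfam cKO over WT for the 8 junction genes. Red points are the reported fit with its SE, grey points 14 alternative settings, and open diamonds the fit with libraries scaled to equal Krt5. The dashed line is the median of all tested genes, 0.07. Cdh1 lies at 0.35 and above 0 in each setting, while points of Cldn1, Ctnna1 and Tjp1 lie on both sides of 0.

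Set against Krt5, the groups overlapped for most of the 8 genes. Cdh1 had 53.4 and 57.6 FPKM for each 1000 FPKM of Krt5 in Tfam cKO, and 42.0 and 55.8 in WT. On this scale the groups overlapped for 7 of the 8 members, Cdh1 among them, and Ctnna1 lay below the WT range in both Tfam cKO libraries, at 46.9 and 47.4 against 51.9 and 61.4 in WT. The shares over all tested genes were 7.12% higher and 10.3% lower. Cldn1 had 87.9 and 85.5 FPKM for each 1000 of Krt5 in Tfam cKO and 83.9 and 104 in WT. Krt5 itself was not a steady measure, since its log2 fold change of 0.15 (limma adjusted p = 0.971) was 0.46 without WT 1 and −0.15 without WT 2.

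Set against Cd207 in place of Krt5, most members stood apart again. Cdh1 had 157 and 159.9 FPKM for each 1000 FPKM of Cd207 in Tfam cKO and 92.0 and 112 in WT, and 7 of the 8 members, all but Tjp1, lay above the WT range in both Tfam cKO libraries. That scale lifted most genes, with 56.6% of all tested genes higher and 0.816% lower. The groups overlapped in Cd207 itself, and the ratio of Krt5 to Cd207 was higher in both Tfam cKO libraries. What part keratinocyte RNA had in the levels of the junction genes was not tested.

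**Figure D3:**
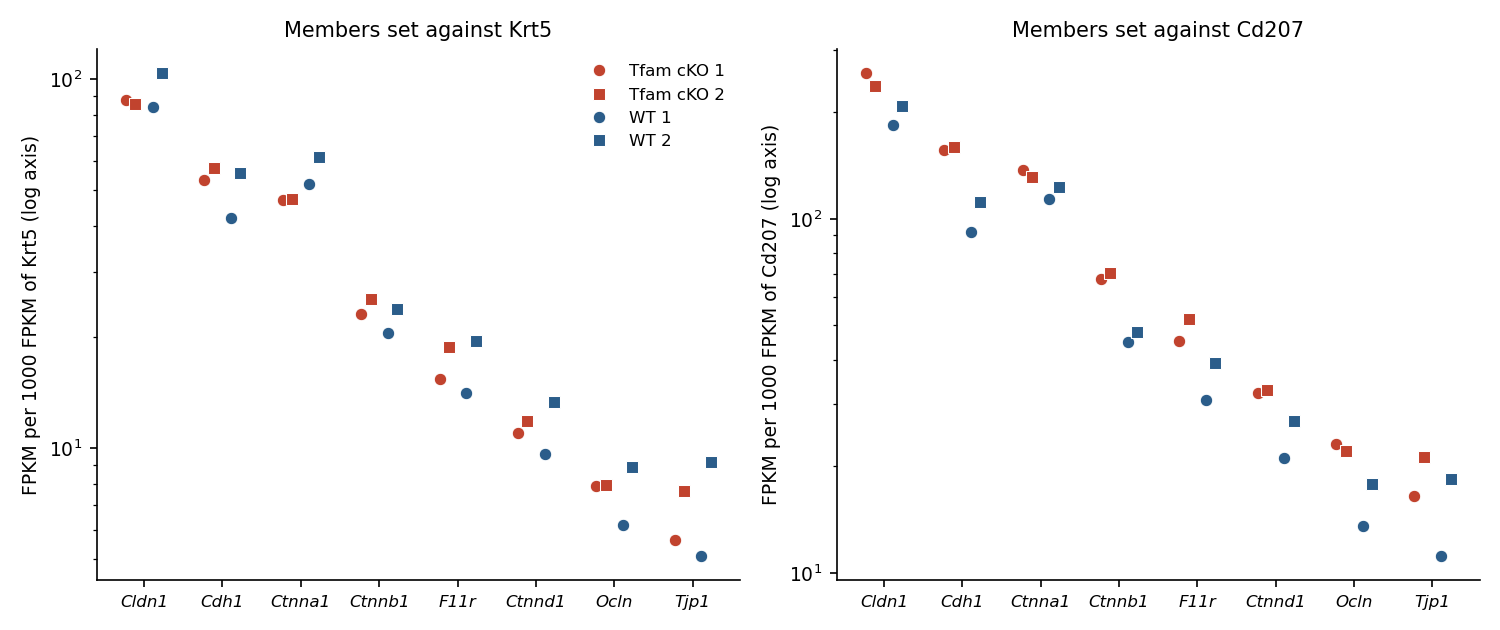
FPKM of each junction gene for each 1000 FPKM of Krt5 (left) and of Cd207 (right), on log axes, with 1 point for each library. Against Krt5 the groups overlap for 7 of 8 genes, and against Cd207 the Tfam cKO libraries are higher for 7 of 8.

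The promoters of Ocln and F11r are shown because, of the members searched, their RefSeq promoter windows held the E-box CACCTG. The E-cadherin repressors of the Snail and ZEB families bind this motif, read here as CACCTG or its reverse complement CAGGTG. Windows of 300 bases, 250 before and 50 after a transcription start, were searched for 6 of the 8 members. Cdh1 had no window, the chromosome of Ctnna1 was left out of the search, and the result covers neither gene. The motif was in 3 of their 9 windows and in 20.2% of the 32851 RefSeq windows of that length. Overlapping windows of Ocln share a site, so that site counts more than once among the 3. The deposited positions of the members did not overlap those in GRCm38.p6, the build of these windows, except for Cldn1, whose ends differed too. No expression value is therefore tied to these coordinates. Capitals mark the motif.
Ocln, GRCm38.p6 chr13:100552449-100552748, minus strand: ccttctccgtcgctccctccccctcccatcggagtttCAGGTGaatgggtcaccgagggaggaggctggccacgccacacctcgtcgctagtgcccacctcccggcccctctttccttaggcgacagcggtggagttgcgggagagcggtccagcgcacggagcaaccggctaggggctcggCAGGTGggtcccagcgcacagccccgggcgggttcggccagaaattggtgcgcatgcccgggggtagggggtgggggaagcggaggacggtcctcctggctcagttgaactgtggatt
F11r, GRCm38.p6 chr1:171437311-171437610, plus strand: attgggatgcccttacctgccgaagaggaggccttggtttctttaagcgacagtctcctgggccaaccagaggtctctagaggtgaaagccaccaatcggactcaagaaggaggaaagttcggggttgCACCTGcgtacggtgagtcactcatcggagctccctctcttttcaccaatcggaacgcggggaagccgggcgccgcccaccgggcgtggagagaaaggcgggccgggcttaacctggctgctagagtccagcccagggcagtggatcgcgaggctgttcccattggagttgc
In this window of Ocln the motif began 213 and 68 bases before the start site, and in that of F11r 122 bases before it. Counted from the start site of the other Ocln window, the first of the 2 Ocln sites began at position 8, after that start. A match of letters describes the window and does not show that a factor binds there.

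The repressors themselves were listed at low levels. Snai2, which encodes Slug, was at 7.82 and 9.23 FPKM in Tfam cKO and at 9.83 and 5.75 FPKM in WT, and Zeb1 at 11.9 and 11.6 FPKM in Tfam cKO and at 12.5 and 9.58 FPKM in WT. Both overlapped between the groups, and both, like Klrg1 and Itgae below, were chosen after their values were seen. The list of repressors, shedding enzymes and receptors of E-cadherin had 12 genes, of which 7 were tested and 0 passed in limma. An unadjusted p below 0.05 was found for 0 of the 7, beside 5.01% of all tested genes as higher and 1.19% as lower. In both Tfam cKO libraries 2 of the 7 were above and 0 below the WT range, beside 25.4% and 9.75% of all tested genes, and the median log2 fold change was 0.09. Adam15, a membrane protease and among the abundant genes of this list, was listed at 22.0 and 21.3 FPKM in Tfam cKO and at 19.2 and 27.6 FPKM in WT, so that the groups overlapped (log2 fold change −0.09, limma adjusted p = 0.978). Klrg1, a receptor for E-cadherin on lymphocytes, was listed at 0 in all 4 libraries, and Itgae, whose product binds E-cadherin as CD103, at 6.51 and 11.01 FPKM in Tfam cKO and 7.76 and 11.2 FPKM in WT.

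Among the tested genes of the lists, the largest fold change on the log2(FPKM + 1) scale was that of a tight junction gene, Cldn4. Of 38 listed genes, 19 were tested, 0 passed in limma, and 3 had an unadjusted p below 0.05, all 3 with a positive fold change, where 5.01% of all tested genes had one with a positive and 1.19% with a negative fold change. In both Tfam cKO libraries 8 of the 19 were above and 1 below the WT range, beside 25.4% and 9.75% of all tested genes, and the median log2 fold change was 0.21. Cldn4, a claudin of the upper epidermal layers, was listed at 640.1 and 449 FPKM in Tfam cKO and at 279 and 198 FPKM in WT, a ratio of means of 2.28. Its log2 fold change was 1.19 (SE 0.26, limma adjusted p = 0.396), and by library number the difference was 1.20 and 1.18. Without Tfam cKO 2 the fold change was 1.44 and the limma adjusted p was 0.00398, in a fit that assumes the lone library to vary like the other group. It did not pass without Tfam cKO 1 (0.93, limma adjusted p = 0.376), without WT 1 (1.43, limma adjusted p = 0.0742) or without WT 2 (0.94, limma adjusted p = 0.306). Set against Cldn1 within each library, which removes the scaling, Cldn1 was 0.615 and 0.726 times Cldn4 in Tfam cKO and 1.38 and 1.57 times Cldn4 in WT.

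Epcam, which Langerhans cells express, was listed at 192 and 179.6 FPKM in Tfam cKO and at 199.6 and 183 FPKM in WT, and there the groups overlapped. Crb3, a polarity protein of the apical membrane, chosen after its values were seen, was listed at 18.6 and 16.4 FPKM in Tfam cKO and at 10.1 and 7.85 FPKM in WT (log2 fold change 0.90, limma adjusted p = 0.325). Epcam was chosen in the same way, as were Lypd3, Krt1, Krt10, Krtdap and Dmkn, the markers of differentiated keratinocytes described next. Lypd3, an adhesion protein of differentiated keratinocytes, was listed at 283 and 248 FPKM in Tfam cKO and at 125 and 174 FPKM in WT, and Krt10, the keratin of the layers above the basal one, at 232 and 671 FPKM in Tfam cKO and at 361 and 547 FPKM in WT. Krt1, the partner of Krt10, was listed at 143 and 184 FPKM in Tfam cKO and at 243 and 186 FPKM in WT (log2 fold change −0.39, limma adjusted p = 0.872). Krtdap was listed at 49.8 and 268 FPKM in Tfam cKO and at 94.8 and 159 FPKM in WT, and Dmkn at 315 and 399 FPKM in Tfam cKO and at 327 and 285 FPKM in WT. Of these markers Lypd3 was above and Krt1 below the WT range in both Tfam cKO libraries, the groups overlapped in the other three, and the part of differentiated keratinocytes in the level of Cldn4 was not tested. Cldn2, Cldn10, Cldn14 and Cldn18 were listed at 0 in all 4 libraries.

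The remaining genes of the adherens junction were spread around the members. Of 19 listed genes, 17 were tested, 0 passed in limma, and 4 had an unadjusted p below 0.05, all 4 with a positive fold change, where 5.01% of all tested genes had one with a positive and 1.19% with a negative fold change. In both Tfam cKO libraries 8 of the 17 were above and 2 below the WT range, beside 25.4% and 9.75% of all tested genes, and the median log2 fold change was 0.19. Vasp, an actin-elongation factor, was listed at 229 and 188 FPKM in Tfam cKO and at 197 and 233 FPKM in WT, and Actn4, an actin cross-linker, at 167 and 155 FPKM in Tfam cKO and at 145 and 116 FPKM in WT (log2 fold change 0.31, limma adjusted p = 0.891). Zyx, which encodes the focal adhesion and junction protein zyxin and was chosen after its values were seen, was listed at 43.1 and 34.5 FPKM in Tfam cKO and at 24.5 and 22.4 FPKM in WT (log2 fold change 0.70, limma adjusted p = 0.536). Jup, plakoglobin, which can take the place of beta-catenin at E-cadherin and serves desmosomes, was chosen after its values were seen, and was listed at 169 and 152 FPKM in Tfam cKO and at 112 and 119 FPKM in WT (log2 fold change 0.47, limma adjusted p = 0.757). Cdh3, the P-cadherin of basal keratinocytes, chosen likewise, was listed at 20.9 and 16.8 FPKM in Tfam cKO and at 18.3 and 14.2 FPKM in WT, and Cdh1 was 11.5 and 13.1 times Cdh3 in Tfam cKO and 10.5 and 11.8 times in WT. Afdn and Plekha7, which join nectins and microtubules to the junction, were the 2 genes below the WT range in both Tfam cKO libraries, with 39.7 and 38.6 FPKM of Afdn in Tfam cKO and 41.8 and 47.6 FPKM in WT.

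Genes that turn beta-catenin over or answer to it had a median close to that of all genes. Of 17 listed genes, 14 were tested and 0 passed in limma. An unadjusted p below 0.05 was found for 0 of the 14, beside 5.01% of all tested genes as higher and 1.19% as lower. In both Tfam cKO libraries 3 of the 14 were above and 2 below the WT range, beside 25.4% and 9.75% of all tested genes, and the median log2 fold change was 0.08, beside 0.07 for all tested genes. Csnk1a1, the kinase that primes beta-catenin for degradation, was listed at 119 and 110.5 FPKM in Tfam cKO and at 125 and 91.7 FPKM in WT. Myc was listed at 44.1 and 51.8 FPKM in Tfam cKO and at 44.6 and 38.3 FPKM in WT. Axin2, a feedback inhibitor and widely used readout of Wnt signalling, chosen after its values were seen, was listed at 5.37 and 7.77 FPKM in Tfam cKO and at 8.72 and 8.85 FPKM in WT (log2 fold change −0.39; limma adjusted p = 0.846). Ccnd1, which encodes the cell cycle regulator cyclin D1 and was chosen likewise, was listed at 32.9 and 32.6 FPKM in Tfam cKO and at 25.4 and 26.8 FPKM in WT (log2 fold change 0.31, limma adjusted p = 0.854), so that these targets lay on opposite sides of WT.

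**Figure D4:**
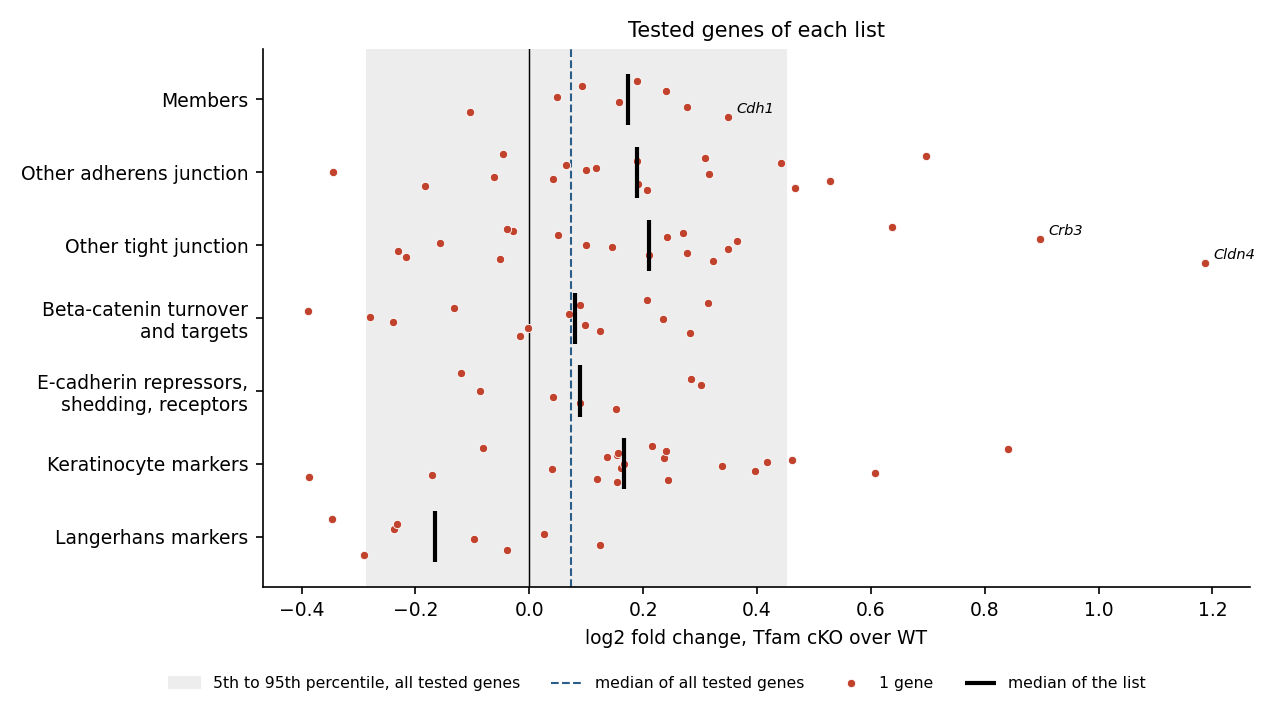
Log2 fold change of Tfam cKO over WT for each tested gene of 7 lists. Points are genes, black bars list medians, the dashed line the median of all tested genes (0.07) and the grey band the range from their 5th to their 95th percentile. The median of the 8 junction genes is 0.17, and Cldn4 is farthest to the right, at 1.19.

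In its profile over the 4 libraries Cdh1 resembled genes of mixed kind. By the Euclidean distance between log2(FPKM + 1) values, each centred on its own mean, the 5 nearest tested genes outside the members were Pdlim2, Dpagt1, Rpl18, Tex10 and Bicd2, at distances from 0.0309 to 0.0406. Pdlim2, the nearest, was listed at 21.1 and 19.8 FPKM in Tfam cKO and at 17.3 and 14.9 FPKM in WT. With 4 libraries this is a description of these samples.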

How the data were processed

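Per the file headers, the authors' deposited FPKM came from Cufflinks, in 1 table for each library, and each value had a 95% interval. Per the submitters' processing notes CASAVA and mm10 are named too, with no version. The aligner is not given in the sources used here, nor is the annotation. The members' loci did not overlap those of GRCm38 except for Cldn1, whose ends differed as well. The build is therefore unresolved, and coordinates are printed as deposited. NEBNext Ultra libraries were made from Trizol-extracted RNA, per the labels' protocols, which do not state strand, so fragments of genes that overlap in the tables, Ctnna1 with Lrrtm2 and Ctnnb1 with Mir7090, cannot be told apart. Read depth is not recorded. Effective fragment numbers were worked out from the interval widths, and the 74 of 9645 genes for which they were whole within 0.02 in all 4 libraries put the depth of Tfam cKO 1, Tfam cKO 2 and WT 2 at 0.884, 1.56 and 1.37 times that of WT 1. For most genes these numbers were not whole, so the intervals may hold more than counting error. Each interval belongs to a single library and does not cover the spread between libraries.

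From these values, the 24994 rows were summed by symbol, for 301 symbols with several loci. Tfam cKO was compared with WT in limma 3.58.1 under R 4.3.3, on log2(FPKM + 1) with a mean trend, for symbols of at least 1 FPKM on average, at an adjusted p of 0.05. The fit was tested on simulated data whose planted changes were all larger than the fold changes of the members. That test therefore does not cover differences of their size. The members, 4 gene lists and 7 cell type lists were chosen with earlier results of these data known. Named are the members, Krt5, Tfam, Cd207, and from each list up to 4 genes past the threshold or else the 2 most abundant, and any further list gene was picked with its values in view, as the text says beside it. Some genes that this rule selects are not reported here. Alternatives were other scalings, filters, pseudocounts, moderation, the replicate number as a block, the top locus only, and leaving out each library. Scaling to equal Krt5 was added after seeing the data. Promoters are from RefSeq GRCm38.p6. Plots used matplotlib 3.10.9 and Python 3.11.15.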

Additional observations from a re-analysis of the deposited data

How the results depend on the processing

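Under each of the 14 other settings 0 of the 8 junction genes passed the limma threshold, and 102 of 112 fold changes kept their sign. The median log2 fold change of the 8 was 0.063 after quantile normalization, 0.053 after rescaling to equal totals (TPM) and 0.022 with libraries scaled to equal Krt5, a setting chosen after seeing the data. It ran from 0.11 to 0.24 with a library left out. Signs turned for Cldn1, at −0.10 after quantile normalization, −0.075 after rescaling and −0.11 at equal Krt5, for Tjp1, at −0.0305, −0.027 and −0.057, and for Csnk1a1, at −0.0168, −0.0243 and −0.0539. With a library left out, fold changes ran from −0.11 to 0.20 for Cldn1, from −0.29 to 0.0802 for Ctnna1, from −0.0205 to 0.21 for Tjp1, from −0.15 to 0.46 for Krt5, from −0.19 to 0.098 for Vasp, from −0.12 to 0.32 for Csnk1a1 and from −0.34 to 0.17 for Adam15.

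Over all genes, limma called 2 as reported, 0 without a filter (16426 tested), 1 with the filter at 5 FPKM, 1 with a pseudocount of 5, 5 with robust moderation, 23 at equal Krt5, and from 16 to 82 with a library left out. With the replicate number as a block it called 184, 145 higher and 39 lower, 0 members among them. Cldn4 was among those 184 (log2 fold change 1.19, limma adjusted p = 0.000722), and over its other settings its adjusted p reached 0.856. Crb3 (limma adjusted p = 0.00127), Lypd3 (limma adjusted p = 0.0207) and Zyx (limma adjusted p = 0.0222) were the other list genes among them. The labels pair no samples, and deviations of same-numbered libraries correlated with r = 0.255 across genes, which are not independent replicates. The causes of these changes were not tested. With 2 libraries a group, the 95% interval for Cdh1, from −0.09 to 0.79, shows how little the spread between libraries lets a difference of this size be told apart.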
